A study of Mus musculus with 6 samples.

Results

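The regions described here were 684 distal stretches of chromatin that RUNX1 occupied in both libraries taken 6 h after hCG and that carried a peak before hCG that was not replicated. They made up 3.98% of the 17190 regions with a peak in both 6 h libraries. Each was narrower than 2000 bp, overlapped a peak of a 0 h list by at least 1 bp, overlapped no region with a peak in both 0 h lists, and had its summit more than 1 kb from every RefSeq gene end. The members were therefore chosen by the measured presence and position of peaks in the 4 lists themselves. Their 6 h and 0 h values are given as a description with no test.

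RUNX1 binding was measured by chromatin immunoprecipitation and sequencing (ChIP-seq) in mouse granulosa cells, the somatic cells that surround and nourish the oocyte. The animals were CBA x C57BL/6 F1 mice aged 21 days, with no genetic change named in the labels. They received 5 IU of eCG, a gonadotropin that drives follicle growth, and 46 h later 5 IU of hCG, which stands in for the surge of luteinising hormone that triggers ovulation. The 6 h group had 2 RUNX1 libraries collected 6 h after hCG, the 0 h group had 2 libraries collected before it, and each time point had 1 pooled input. The 0 h assignment rests on the sample titles and time labels, because the treatment text is the same for every sample. Nothing states whether replicates came from separate animals, and peak lists hold no expression by which the cell type could be checked against markers.

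RUNX1 is a DNA-binding transcription factor that pairs with CBFB and recognises a short sequence, TGTGGT or the longer TGTGGTT. It can act with coactivators or with corepressors such as the TLE and CBFA2T3 proteins. In the ovary, the luteinising hormone surge switches granulosa cells from a growing-follicle programme, with oestrogen synthesis, to an ovulatory programme of matrix remodelling, inflammation-like signalling and progesterone synthesis, and RUNX1 is among the transcription factors induced in that switch. Distal elements such as enhancers carry much of a cell type's specific control.

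The description of these regions as distal held only in part. The rule measured distance to the outer ends of annotated genes, so a start site inside a long gene did not count as an end. In the RefSeq table of promoter windows (250 bases before to 50 bases after each start, assembly GRCm38.p6), 114 of the 684 members (16.7%, exact 95% binomial interval 13.9 to 19.7) overlapped a window, against a background of 38.4% of the replicated 6 h regions and 8.74% of the narrow distal ones. Of these 114 windows, 113 belonged to protein-coding genes. The start lay more than 1000 bp from every gene end in 103. It lay within 50 bp of one in 7, among them Eif4a1, Kdm7a, Spred2 and Srsf5, whose regions reached the window from a summit 1001 to 1305 bp away, and between these limits in 4. The intervals cover counting error only.

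The sequences of the overlapped promoters show where the RUNX letters lie. The 250 bases before the start held 3 or more copies of TGTGGT, read on either strand, at 3 of the 114 windows (2.63%) and at 37 of the 32851 windows of the table (0.113%). These 3 belonged to Gm33162, a long non-coding RNA, to Fancc, a Fanconi anaemia DNA repair gene, and to Unk, which encodes an RNA-binding zinc finger protein. They are printed because they hold the most copies among the 114 windows searched, and they were singled out after the counts were seen. The shares at this cut are therefore a description. Any copy was held by 12 of the 114 stretches, of which 7 held 1 and 2 held 2. The Gm33162 stretch is chr3:101517234-101517483 on the minus strand, the Fancc stretch chr13:63431746-63431995 on the minus strand and the Unk stretch chr11:116030066-116030315 on the plus strand. Each reads 5′ to 3′ toward the start, and capitals mark TGTGGT or its reverse complement ACCACA.
Gm33162: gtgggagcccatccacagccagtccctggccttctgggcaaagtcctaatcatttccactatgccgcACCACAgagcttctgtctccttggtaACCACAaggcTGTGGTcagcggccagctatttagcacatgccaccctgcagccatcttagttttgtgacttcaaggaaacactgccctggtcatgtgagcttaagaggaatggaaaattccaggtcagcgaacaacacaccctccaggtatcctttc
Fancc: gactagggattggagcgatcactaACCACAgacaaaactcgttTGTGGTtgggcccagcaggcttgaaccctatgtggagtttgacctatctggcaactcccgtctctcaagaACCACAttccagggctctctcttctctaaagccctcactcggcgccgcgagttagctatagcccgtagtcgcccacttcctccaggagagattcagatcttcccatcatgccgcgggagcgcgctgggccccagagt
Unk: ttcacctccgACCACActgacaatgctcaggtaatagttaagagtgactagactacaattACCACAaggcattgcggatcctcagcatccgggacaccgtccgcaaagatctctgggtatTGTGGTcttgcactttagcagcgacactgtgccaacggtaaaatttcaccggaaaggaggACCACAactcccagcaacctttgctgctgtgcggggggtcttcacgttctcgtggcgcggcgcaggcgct
The peak summit lay 190 bp before the Gm33162 start, with all 3 matches within the 101 bases centred on it. It lay 165 bp after the Fancc start and 88 bp after the Unk start. In these last genes the marked matches lie before the start, so outside the 101 bases centred on the summit.

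The summit stretch itself could be read at some of these promoters. Of the 36 members whose 101 bases around the summit fell wholly inside a window, 2 held TGTGGT (5.56%, exact interval 0.680 to 18.7), and the same length at the middle of every window of the table held it in 5.83%. The following 3 stretches, centred on the summit, are printed as cases without the letters at genes with different roles, and were chosen after the sequences were seen. Nr4a1 encodes an orphan nuclear receptor made within minutes to hours of hormone signals, Per1 a circadian clock repressor, and Nav2 a cytoskeletal guidance protein. Their positions are chr15:101266719-101266819, chr11:69098800-69098900 and chr7:49245996-49246096, with genes on the plus strand.
Nr4a1: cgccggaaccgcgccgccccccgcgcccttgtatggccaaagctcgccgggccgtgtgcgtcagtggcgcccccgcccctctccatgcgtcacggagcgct
Per1: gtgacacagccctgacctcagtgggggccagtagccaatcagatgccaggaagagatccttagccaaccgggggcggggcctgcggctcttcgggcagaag
Nav2: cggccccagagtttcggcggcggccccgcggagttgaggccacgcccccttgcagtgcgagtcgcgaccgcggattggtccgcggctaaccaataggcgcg
The summit lay 77 bp before the Nr4a1 start, 99 bp before the Per1 start and 143 bp before the Nav2 start. No match says only that these letters are not in these stretches. The sequences at the other distal summits were not analysed here.

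Across whole windows, TGTGGT was found in 16 of the 114 (14.0%, exact interval 8.24 to 21.8), near the 16.8% of all 32851 windows. The longer TGTGGTT, which contains the shorter word, was found in 12 of 114 (10.5%, exact interval 5.56 to 17.7), against 5.27% of all windows, 3.67% of the 599 windows under distal 6 h regions with no 0 h peak and 4.56% of the 987 under gene-end regions with an unreplicated 0 h peak. The SP/KLF word GGGCGG occurred in 82 windows (71.9%) against 35.7% of all windows, 71.5% under distal regions with no 0 h peak and 75.8% under the gene-end regions. The ETS word CCGGAA occurred in 33 (28.9%) against 14.9%, 26.4% and 32.2% in the same order, and the AP-1 word TGANTCA in 6 (5.26%) against 7.81%, 5.51% and 4.05%. For the SP/KLF and ETS words the members' windows were close to those of these 2 classes. The 18 windows under distal regions with a replicated 0 h peak are few: GGGCGG occurred in 8 (44.4%, exact interval 21.5 to 69.2), CCGGAA in 4 and TGTGGTT in none. Both strands were read. Besides TGTGGTT, which was not in the plan, 12 words were searched, and no word was tested for a difference. Among the words not given above, the GATA word AGATAA occurred in 5.26% of the members' windows against 11.2% of all windows. The forkhead word TGTTTAC occurred in 0.877% against 3.65%, and the TEAD word GGAATG in 16.7% against 14.7%. The windows under the members had a median GC content of 64.8% against 52.7% over all windows, and its part in the word counts was not tested. The 599 windows under distal regions with no 0 h peak were similarly GC-rich, with a median of 63.3%.

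At 6 h the members ranked high in both lists. Fold enrichment at the summit, the authors' value in each peak list, had a median of 13.3 in replicate 1 (range 2.89 to 67.2) and 21.7 in replicate 2 (range 3.24 to 93.9). Expressed as a percentile of all peaks in the same list, the medians were 79.6 and 87.1. Distal regions with a replicated 0 h peak (430 regions) stood higher, at 89.5 and 93.6, and distal regions with no 0 h peak (7249 regions) lower, at 49.3 and 70.9. The 1273 gene-end regions that also had an unreplicated 0 h peak lay close to the members, at 78.7 and 82.0. The members thus sat between the other distal classes in both libraries, although the quartile ranges of the classes overlapped. Both percentiles exceeded 90 in 200 members (29.2%) and both were below 50 in 65 (9.50%). Over all replicated 6 h regions these shares were 9.59% and 26.0%, and over distal regions with a replicated 0 h peak 47.4% and 4.88%.

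**Figure D1:**
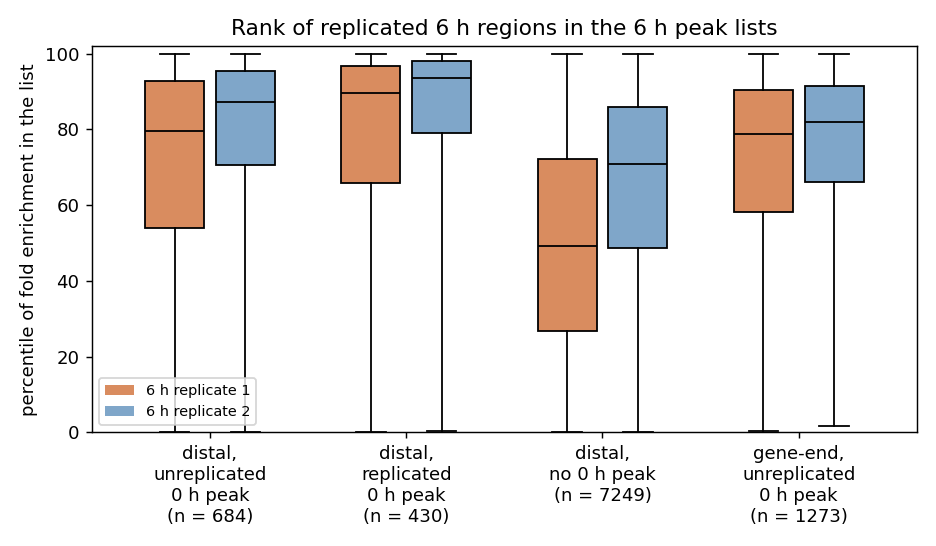
Percentile of fold enrichment (vertical axis, percent of peaks in the same list) for 4 classes of replicated 6 h regions in each 6 h library. Boxes span the quartiles with the median as a line and whiskers reach the lowest and highest region; the 684 distal regions with an unreplicated 0 h peak have medians of 79.6 and 87.1, between the other distal classes.

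The order of the members was shared by the 6 h libraries. Fold enrichment in replicate 1 and replicate 2 had a Spearman rho of 0.88 over the 684 members, which share their libraries and their input. Between the 6 h and the 0 h replicate 2 values it was 0.27 for 6 h replicate 1 and 0.32 for 6 h replicate 2, over 642 members. The 0 h values span a range that the rule narrowed, since only called peaks enter and replicated 0 h regions are left out, so nothing is read from the lower values. Strength at 6 h was about the same at the promoter windows as elsewhere: the 114 members at a window had median folds of 13.6 and 20.5, and the 570 away from windows 13.2 and 22.1.

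**Figure D2:**
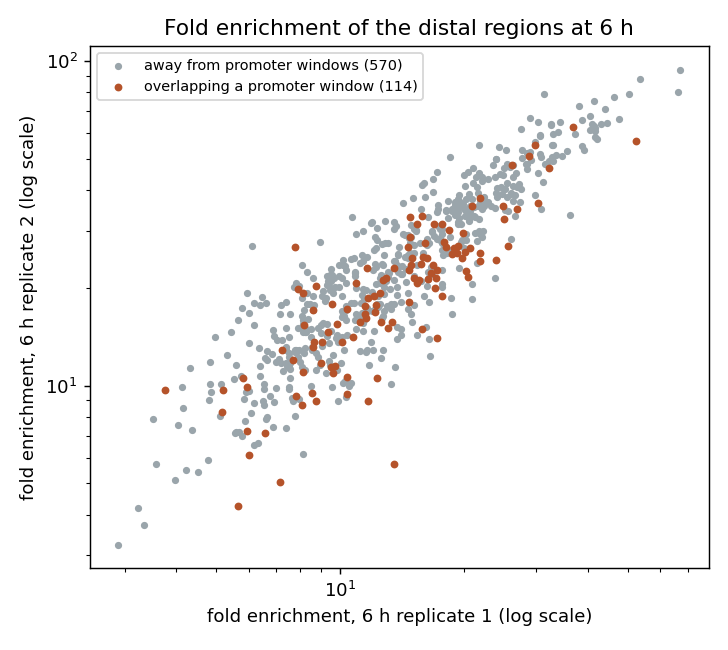
Fold enrichment of each of the 684 members in 6 h replicate 1 (horizontal axis, log scale) and 6 h replicate 2 (vertical axis, log scale). Each point is 1 region and colour marks the 114 that overlap a promoter window; both sets follow the same diagonal (Spearman rho 0.88 over all points).

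The 0 h peak came almost entirely from 1 library. It was called in replicate 2 alone in 639 members (93.4%, exact interval 91.3 to 95.2), in replicate 1 alone in 42 (6.14%) and in both as separate, non-overlapping peaks in 3. The lists differed in size: 0 h replicate 1 held 948 peaks, of which 94 (9.92%) had no partner, and replicate 2 held 3135, of which 2288 (73.0%) had none. Of those unpartnered replicate 2 peaks, 2164 (94.6%) lay in a replicated 6 h region and 659 (28.8%) lay in a member. Of the 94 in replicate 1, 62 (66.0%) lay in a replicated 6 h region and 45 (47.9%) in a member. Over all 17190 regions, 2044 (11.9%) overlapped a 0 h peak without a replicated one. A missing replicate 1 peak says only that the signal there did not reach the list, whose lowest −log10 p was 9.01. When any overlap with 1 list counted, 475 regions met the rule from the replicate 1 list and 1072 from the replicate 2 list. Replication could not be asked for there, so both counts take in the 430 distal regions with a replicated 0 h peak. With peaks limited to a −log10 q of at least 20 in every list, 270 did.

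The 0 h peaks were narrow and of modest strength. In replicate 2, 642 members had a peak, with a median fold of 6.99 (range 2.00 to 14.0), a median percentile of 44.6 in its list and a median −log10 p of 19.3. Distal regions with a replicated 0 h peak had 9.57, 80.2 and 32.1 there, an order that the rule bears on, since it leaves out replicated 0 h peaks. In replicate 1, the 45 members with a peak had a median fold of 6.95 and a median percentile of 39.3. The median width was 255 bp for a 0 h replicate 2 peak, and 767.5 bp for the merged 6 h region around it. The 0 h replicate 2 summit was a median of 35 bp from the region's 6 h summit, and it was within 100 bp in 529 of 642 (82.4%), against 78.0% over all replicated 6 h regions with such a peak and 93.7% of distal regions with a replicated 0 h peak. The 6 h summits of the 2 replicates were a median of 25 bp apart.

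The number of overlapping fragments at the summit (pileup), recovered from fold and p, was larger at 6 h. Its median over the members was 77.5 in 6 h replicate 1, 104 in 6 h replicate 2, 31 in 0 h replicate 2 (642 peaks) and 32 in 0 h replicate 1 (45 peaks). Divided by the most common background in each list, which stands in for depth, these medians were 28.1, 48.8, 11.7 and 11.6. Both 6 h medians were above the 0 h ones. The 0 h medians cover only members whose peak passed the call in that library, so their closeness does not show that the 0 h libraries were alike. Within a member, the scaled pileup of 6 h replicate 1 over 0 h replicate 2 had a median of 2.36 (quartiles 1.68 and 3.36) and exceeded 1 in 612 of 642 (95.3%). For 6 h replicate 2 the median was 4.05 (quartiles 2.89 and 5.77), and 639 of 642 (99.5%) exceeded 1. Over all replicated 6 h regions with a 0 h replicate 2 peak the shares above 1 were 96.3% and 99.7%, so the members were near the background. Distal regions with a replicated 0 h peak had medians of 2.18 and 3.87, and gene-end regions with an unreplicated one 2.82 and 4.15. The ratio also differed between the 6 h replicates, and the rule asks for 2 peaks at 6 h but a single unpartnered one at 0 h, so the ratio is a description.

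**Figure D3:**
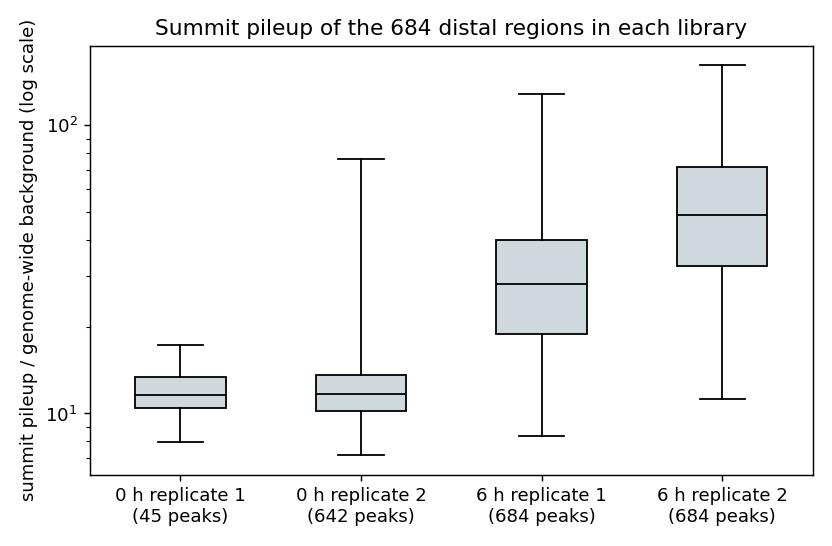
Summit pileup divided by the most common background of the library (vertical axis, log scale) for the members with a peak in each of the 4 libraries. Boxes span the quartiles with the median as a line and whiskers reach the extremes; the 0 h medians are 11.6 and 11.7, and the 6 h medians 28.1 and 48.8.

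Of the 8 members with the highest 6 h rank, 5 lay inside an annotated gene. The first was chr6:127329653-127331080 (mm10), outside any gene, with folds of 67.2 and 93.9 in 6 h replicates 1 and 2 and 10.7 in 0 h replicate 2. The second, chr5:28012966-28014685 in the non-coding gene Gm35223, had 66.2 and 80.4, and its 0 h peak of 8.50 came from replicate 1. The region chr11:85384248-85385052 inside Bcas3 had 53.7 and 87.7 at 6 h and 6.28 in 0 h replicate 2. These 3 had their 6 h values far above the single 0 h one. The remaining 5 of the top 8 were an intergenic region at chr2:108593173-108594110, one in Smad3, an intergenic region at chr3:38257344-38258397, and 1 each in Camta1, a calmodulin-binding transcription activator, and Fam207a, with 6 h folds from 44.1 to 50.3 in replicate 1 and from 64.3 to 79.2 in replicate 2.

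The members with the highest 0 h rank were also strong at 6 h. An internal promoter of Tnrc6a, a microRNA silencing factor (chr7:123123588-123124692), had the highest 0 h fold, 14.0 in replicate 2, at the 94.9th percentile of that list, with 52.4 and 56.8 at 6 h. An internal start of the lipid kinase gene Pik3c2g (chr6:139841206-139841819) had 12.9 at 0 h and 29.8 and 54.9 at 6 h. At both regions the unpartnered 0 h value was well below the 6 h values. An intergenic region at chr5:75465447-75466262, whose nearest protein-coding gene was Kit, 109124 bp away, had 12.6 at 0 h and 43.0 and 63.8 at 6 h. Kit encodes the receptor for stem cell factor. The region chr8:104160748-104161445, 9350 bp from the end of Bean1, had 12.6 at 0 h and 24.1 and 38.1 at 6 h.

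With the scaled pileup of 0 h replicate 2 (or replicate 1 where replicate 2 had no peak), 4 members were above both 6 h values at 0 h and 651 of 684 (95.2%) below both. These 4, singled out after their values were seen, lay inside Elavl2, Kcnma1, Fmnl3 and Nr5a1. Nr5a1 encodes steroidogenic factor 1, a master regulator of steroid synthesis genes. Its member (chr2:38704399-38704682) had pileups of 35 and 30 at 6 h and 41 in 0 h replicate 1, with folds of 6.18, 6.56 and 8.10. It was low in both 6 h lists, at the 19.3rd and 11.4th percentiles, and near the middle of the 0 h replicate 1 list, at the 56.3rd. The Elavl2 member, at an internal promoter of this RNA-binding protein gene, had folds of 8.54 and 9.47 at 6 h and 11.5 in 0 h replicate 2. By rank within the lists, 63 members (9.21%) stood higher at 0 h than in either 6 h list and 535 (78.2%) lower than in both. The lists differ in length, with 948 and 3135 peaks at 0 h and 18761 and 28671 at 6 h, and the rule leaves out replicated 0 h peaks. Neither these counts nor the 4 and 651 above were made for other regions, so they are a description only.

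In position, 472 members (69.0%, exact interval 65.4 to 72.5) had their summit inside an annotated gene and 429 (62.7%) inside a protein-coding one. Over all replicated 6 h regions these shares were 71.1% and 64.1%. They were 62.6% and 54.9% for distal regions with a replicated 0 h peak, and 68.0% and 60.8% for those with none. The median distance from summit to the nearest gene end was 6901.5 bp, against 9884 bp and 8462 bp in the other distal classes, and 274 members (40.1%) lay beyond 10 kb. Beyond 10 kb lay 22.2% of all replicated 6 h regions, 48.6% of the distal regions with a replicated 0 h peak and 45.6% of those with none. Members sat nearer to annotated starts than the other distal classes did. A start lay within 500 bp of the summit in 96 members (14.0%), in 18 of 430 (4.19%) with a replicated 0 h peak and in 603 of 7249 (8.32%) with none. Promoter-window overlap followed the same order: 16.7% in members, 4.19% (exact interval 2.50 to 6.54) and 8.26% (exact interval 7.64 to 8.92). The order also held among regions under 1000 bp wide, at 12.0%, 2.59% and 7.13%. The members at windows were wider, with a median of 1029.5 bp against 727 bp for the rest, and 113 of the 114 had a 0 h replicate 2 peak. Of the 42 members with a 0 h peak in replicate 1 alone, 1 overlapped a window, so the promoter share moved with the 0 h library that gave the peak, and its part in the result was not tested. The share was 10% among regions with a −log10 q of at least 20. It was 4% when 0 h replicate 2 was left out and 12.2% when 0 h replicate 1 was left out. With 1 list left no 0 h peak can be called replicated, so both sets take in the 430 distal regions with a replicated 0 h peak. These 2 shares therefore do not describe the members alone.

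**Figure D4:**
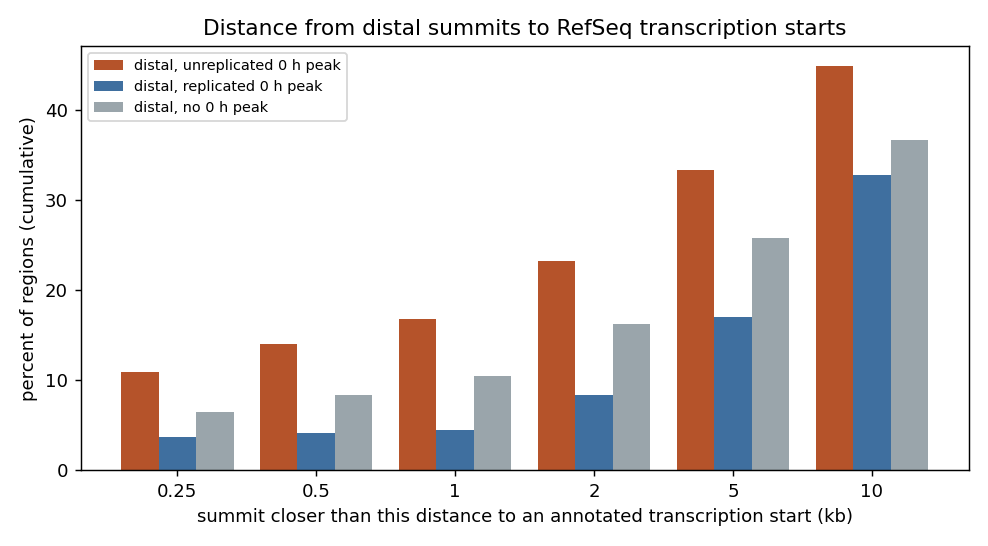
Cumulative percent of regions (vertical axis) whose summit is closer to an annotated transcription start than the distance on the horizontal axis (kb), for 3 classes of distal 6 h region. Members have the tallest bar at each distance, with 14.0% within 0.5 kb against 4.19% and 8.32% in the other classes.

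Members lay on every autosome and on chromosome X. Protein-coding genes that held a member numbered 403, and 28 of them held at least 2. Nav2 held 3, with 6 h replicate 1 folds of 24.99, 25.06 and 9.50, 6 h replicate 2 folds of 46.9, 32.5 and 14.7 and 0 h replicate 2 folds of 8.50, 5.31 and 4.97. Actb, the cytoskeletal actin gene, held 2 near its end, with 13.3 and 8.52 in 6 h replicate 1, 10.1 and 9.99 in replicate 2 and 6.64 and 6.02 in 0 h replicate 2. Of the 664 neighbouring pairs on a chromosome, 18 were within 10 kb of each other and 46 within 50 kb, and the median gap was 1.63e+06 bp. The counts of pairs and of genes holding members were not made for other classes of region. Chromosome X gave 4 members of its 282 replicated 6 h regions (1.42%), and the autosomes gave from 3.10% to 5.04% of theirs.

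Genes of the ovary were examined in 12 lists of known roles. Beyond the top member of each list, the members named below were chosen after their values were seen. A gene counted when a member's summit lay inside it or within 50 kb, and 1288 of 21896 protein-coding genes (5.88%) did so. Of the 233 listed genes, 45 did (19.3%). The listed genes were also above all protein-coding genes in the other distal classes: 68.2% of listed genes against 36.5% of protein-coding genes lay near a distal region with no 0 h peak, and 12.4% against 3.45% near one with a replicated 0 h peak. The higher share is therefore not particular to the members, and gene length was not matched. No member lay within 50 kb of Runx1 itself, of Fst, Inha or Inhba, or of Nr5a2, Esr2 or Wt1.

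**Figure D5:**
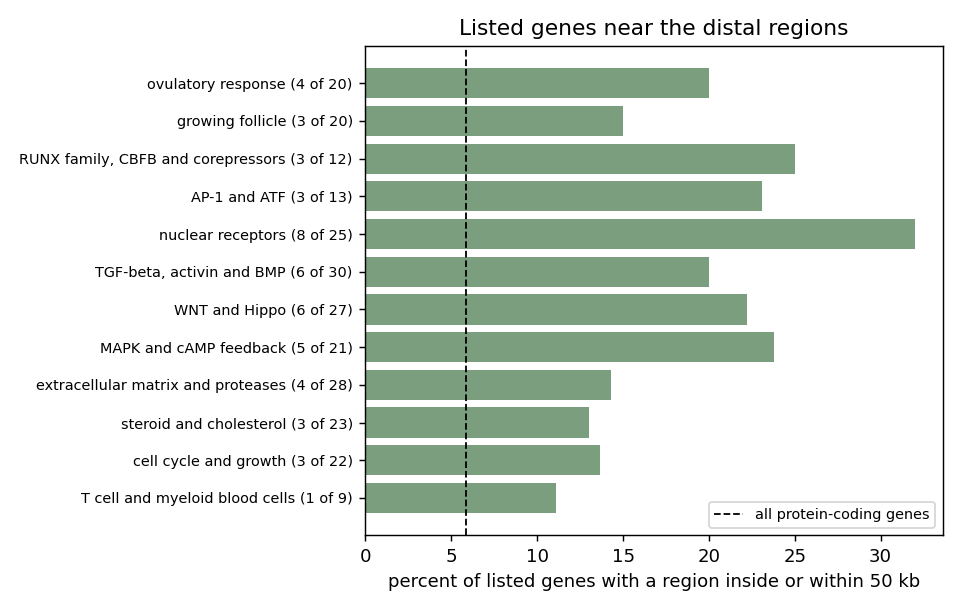
Percent of the genes in each of 12 lists (horizontal axis) that have a member inside or within 50 kb, with the number of genes beside each name. The dashed line is the 5.88% of all protein-coding genes; nuclear receptors have the longest bar, with 8 of 25.

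Among signals and their receptors, 6 of 30 genes of the TGF-beta, activin and BMP list had a member. Smad3, which carries activin and TGF-beta signals to DNA, held the strongest, at chr9:63743500-63745197. Its pileups were 268 and 317 at 6 h and 38 in 0 h replicate 2, with folds of 46.2, 77.5 and 8.24. A second member lay 35508 bp outside Smad3, inside Aagab, with folds of 31.6 and 48.2 at 6 h and 5.83 at 0 h. Both 6 h values exceeded the 0 h value several times over at each. Tgfbr3, the inhibin co-receptor betaglycan, had a member 8273 bp away with 20.4 and 45.4 at 6 h and 6.49 at 0 h. Inhbb, the activin beta B subunit, had one 35365 bp away with 11.2 and 12.8, and 8.22 in 0 h replicate 1. Fstl3, a secreted activin inhibitor whose member lay at an Rnf126 start, Smad1 and the inhibitory Smad6 had the others, with 6 h folds from 6.78 to 17.9 in replicate 1 and from 9.26 to 28.8 in replicate 2.

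In the WNT and Hippo list 6 of 27 genes had a member. Tcf7l2, a DNA-binding partner of beta-catenin, held one at chr19:55768692-55769478 with 40.5 and 67.7 at 6 h and 7.97 in 0 h replicate 2. Vgll4, a repressor of TEAD factors, held one with 30.6 and 51.7, and 7.38 at 0 h. These were among the strong members in both 6 h libraries. Tead4, the Hippo pathway's DNA-binding factor, had one 45019 bp away, inside Tulp3, with 21.8 and 55.2, and 9.86 at 0 h, and Tcf7l1 held one with 22.8 and 36.8, and 8.53 at 0 h. Wnt4, an ovarian WNT ligand, held a weak one with 6.53 and 9.76 at 6 h and 6.28 at 0 h, and the WNT co-receptor gene Lrp5 held 2.

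Of the feedback genes of MAPK and cAMP signalling, 5 of 21 had a member. Dusp6, a phosphatase that switches off ERK, had 2 nearby, with 6 h replicate 1 folds of 17.7 and 18.7, 6 h replicate 2 folds of 20.1 and 34.4 and 0 h replicate 2 folds of 5.16 and 8.08. Dusp1, a related phosphatase, had one 6433 bp away with 18.4 and 26.1, and 7.62 at 0 h. Both sets of 6 h values stood above the 0 h one. The cAMP phosphodiesterase Pde10a held one at an internal promoter, with 21.0 and 35.7, and 6.84 at 0 h. Prkar2b, a regulatory subunit of protein kinase A whose member lay inside Hbp1, and Spred2, an inhibitor of RAS signalling, had the others.

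Of the transcription factor lists, the AP-1 and ATF list had 3 of 13 genes with a member, and the nuclear receptor list 8 of 25. Fos, an immediate-early AP-1 subunit, had 2, with 6 h replicate 1 folds of 15.2 and 7.97, 6 h replicate 2 folds of 17.8 and 9.07 and 0 h replicate 2 folds of 5.83 and 6.92. Fosl2, another AP-1 subunit, had one 2660 bp away with 14.6 and 17.3, and 7.86 at 0 h. Fosb had 2 of middle to low rank, 1 of them with its 0 h peak from replicate 1. Nr4a1 had 2: the internal promoter printed above, with 10.4 and 17.2 at 6 h and 7.05 at 0 h, and a region 41957 bp away, inside Gm52200, with 14.1 and 22.1, and 5.82. Nr4a3, of the same family, had one 1633 bp away on which the 6 h libraries differed, with 6.13 and 26.9, and 4.66 at 0 h. Nr1d1 and Thra, neighbouring clock and thyroid hormone receptor genes, shared 2 members, the stronger at Msl1 with 26.9 and 35.1, and 8.08 at 0 h. Rora, Rxra, Nr5a1 and Nr6a1 had the others, the last pair sharing 1 member.

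RUNX1's own partners and corepressors gave 3 of 12 genes. Tle6 had 2 members within 50 kb, one inside Tle5 that it shared with Tle2 and one inside Ankrd24, with 6 h folds of 8.50 and 9.02 in replicate 1, 14.1 and 13.3 in replicate 2 and 0 h replicate 2 folds of 6.99 and 6.97. Cbfa2t3 held one with 9.44 and 11.6 at 6 h and 4.84 at 0 h. These ranked near the middle of the 6 h lists, below the typical member.

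In the ovulatory list 4 of 20 genes had a member. Tnfaip6, a hyaluronan-binding protein of the expanding cumulus matrix, had the strongest, 48303 bp away at chr2:51989452-51990115, where Nmi was nearer. Its pileups were 241 and 286 at 6 h and 47 in 0 h replicate 2, with folds of 41.6, 60.7 and 9.33. Edn2, the endothelin that contracts the follicle wall, had one 12357 bp away with 13.6 and 24.1, and 5.67 at 0 h. Zbtb16, a progesterone-responsive transcription factor, held 2, with 11.3 and 11.9 in 6 h replicate 1, 25.3 and 31.6 in replicate 2 and 7.70 and 7.94 in 0 h replicate 2. Fosl2 was the fourth.

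The growing-follicle list had 3 of 20 genes with a member, and the steroid and cholesterol list 3 of 23. Cyp19a1, the aromatase that makes oestrogen, held one at chr9:54204295-54204894 with pileups of 40 and 73 at 6 h and 36 at 0 h, and folds of 7.04, 13.8 and 7.82. Cyp11a1, the enzyme that starts steroid synthesis, held one with pileups of 42 and 63 at 6 h and 29 at 0 h, and folds of 4.04, 7.57 and 4.595. In both genes 6 h replicate 1 was no more enriched by fold than 0 h replicate 2, while 6 h replicate 2 was higher. Scap, an escort protein of cholesterol sensing, held one with folds of 9.25 and 10.9 at 6 h and 9.48 at 0 h, so the libraries were close there too. Nr5a1 was described above. The strongest growing-follicle member ranked at the 30.5th and 67.7th percentiles of the 6 h lists, below the members' medians.

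Matrix genes gave 4 of 28. Col4a2, a basement membrane collagen, held one at chr8:11381508-11382869 with pileups of 202 and 250 at 6 h and 23 in 0 h replicate 2, and folds of 40.5, 61.2 and 6.57. Sparc, a matrix glycoprotein, held one with 16.8 and 43.3, and 7.88 at 0 h. Both were high at 6 h. The protease gene Adamts9 and the protease inhibitor gene Serpine2 had the others, with 12.7 and 16.1 at 6 h and 7.44 at 0 h, and 7.39 and 15.03 at 6 h and 7.10 at 0 h. The cell cycle and growth list gave 3 of 22, Ccne1, Foxp1 and Igf1r, of which Foxp1 had the highest, with 21.3 and 33.1 at 6 h and 5.81 at 0 h.

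In a list of T cell and myeloid blood cell genes, 1 of 9 had a member. It was Ptprc, the leukocyte antigen CD45, with 26.3 and 47.7 at 6 h and 10.1 in 0 h replicate 2 at a region inside the gene. RUNX1 is also a blood cell factor, and whether other cells contributed to the libraries was not tested.

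A few members lay where background itself was high. In 8 members (1.17%) the local background in 6 h replicate 1 was above 15 reads, reaching 97.2, against 0.607% of distal regions with no 0 h peak and 3.49% of those with a replicated one. Their pileups were large in each library with a peak, from 137 to 354 in 6 h replicate 1, 125 to 344 in replicate 2 and 80 to 203 in 0 h replicate 2. Their folds were low, from 2.89 to 8.76, 3.24 to 11.2 and 2.00 to 5.27. The part of the high background in their 0 h call was not tested, and 676 members remain without them.

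At the edges of the rule, the widest member inside the limit was 1995 bp (in Fam13b) and the narrowest region left out was 2003 bp, with folds of 31.3 and 53.8 at 6 h and 6.73 at 0 h. The summit nearest to a gene end inside the limit was 1001 bp away (Eif4a1), and the nearest left out was 996 bp away.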

How the data were processed

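RUNX1 ChIP-seq peak lists of 4 libraries were used, with their groups taken from the titles. Per the submitters' processing notes, reads were aligned with Bowtie2 2.2.5 to mm10 and peaks called with MACS2. Its settings are not given in the sources used here. Peaks were called per library, and the read depth is unknown. The deposited lists give the summit's fold enrichment (a ratio to background), the −log10 p and q and a display score, all by the authors.

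Peaks were merged at 1 bp of overlap. Pileup and background were recovered from fold and −log10 p as the whole number that gives both (pseudocount 1, misfit at most 0.005), and this was found for each peak. Code was tested on simulated peaks. Gene ends came from 49993 RefSeq genes and sequences from RefSeq, GRCm38.p6, with Python 3.11.15, pandas 2.3.3 and SciPy 1.17.1. Percentiles rank fold within a list. Intervals are exact (Clopper-Pearson), 95%.

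The members and gene lists were chosen with earlier results of these data known. Named members were the 8 highest at 6 h, the 5 highest at 0 h (1 is not reported here), the top member of each list, the genes holding most members and the regions at each threshold; any other member named was chosen after seeing values, and the sequences printed also depart from the planned choice. Alternatives were libraries left out, other widths, distances, overlaps and q limits, and other ranks.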

Additional observations from a re-analysis of the deposited data

How the results depend on the processing

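With a stricter −log10 q of at least 20 in every list, 270 regions met the rule instead of 684, 87.8% of them with a 0 h peak from replicate 2 alone and 10% at a promoter window. With summits more than 5 kb from every gene end the number was 402. Leaving out each library in turn gave from 475 to 1072 regions, the lowest without 0 h replicate 2 and the highest without 0 h replicate 1. The promoter-window share ran from 4% to 15.5%, with 12.2% without 0 h replicate 1. Without a 0 h library no peak can be called replicated, so those 2 sets take in the 430 distal regions with a replicated 0 h peak. They are therefore not the same kind of region as the members. That share was 12.0% for regions under 1000 bp, 13.6% with the 0 h summit within 100 bp of the 6 h summit and 21.5% with ends of protein-coding genes only. The share with the summit inside a gene was 62.7% when protein-coding genes alone counted. The median of each member's mean 6 h percentile, 82.2, ran from 79.6 to 87.1 without either 6 h library, and ranking by −log10 p or pileup gave 84.5 and 83.9. Of 32 alternatives, 21 stayed within 1.5 times the count or within the interval or spread of the value, and 11 did not. The count of 475 is among the 21, although its set takes in regions that the rule leaves out. The promoter-window and high-background alternatives were chosen after seeing the data.

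No paired analysis was possible because no result came from a test: the planned comparison of RUNX letters at 6 h and 0 h summits, and the share of members with them, need the genome sequence and were not run. Only 2 libraries per time point, unknown depth and the absence of values below the peak limit bound what the lists can show.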
